A study of Homo sapiens with 6 samples.

Results

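Regulators of the epithelial-mesenchymal state were followed in SKOV3 cells, a line derived from a human ovarian carcinoma, as 10 of the 58735 entries of a gene expression table. They were chosen by gene name and comprise 6 genes of the mesenchymal side (SNAI1, SNAI2, TWIST1, TWIST2, ZEB1 and ZEB2) and 4 of the epithelial side (OVOL1, OVOL2, GRHL2 and ESRP1). RNA sequencing libraries came from 2 culture states of this line, 3 libraries each. Floating spheres had been grown in low-attachment plates without serum, in DMEM/F12 with B27, a serum replacement, and are labelled as stem cells. Sphere-differentiated cells came from such spheres after return to DMEM with fetal serum, where they attached, and are labelled as adherent cells. For sphere medium the methods of the study also list insulin and the growth factors EGF and bFGF, which the labels do not name. Medium, growth factors, serum and attachment therefore changed together and cannot be told apart. Neither state carried a genetic change or drug treatment per the labels, and the study asked which genes change as stem-like cells differentiate. The study describes its cell culture work in general as repeated independently, but the labels do not say that these 3 libraries of a state came from separate cultures, so p-values measure the spread between these libraries, which may be technical.

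Epithelial cells hold to each other and to a basement membrane through junctions, and mesenchymal cells lose these junctions and move. SNAI, TWIST and ZEB proteins are transcription factors that repress junction genes such as CDH1, largely through E-box motifs in DNA. OVOL and GRHL proteins are transcription factors that keep epithelial genes on and hold ZEB genes down, and ESRP proteins are splicing factors that produce the epithelial isoforms of genes such as CD44 and FGFR2. Carcinoma cells can hold features of both states at once.

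Between 14725462 and 16376331 fragments per library could be recovered from the deposited FPKM values. These are fragments per kilobase of gene, scaled by a constant for each library. The fragments recovered were 96.2% to 103% of the total which that constant implies, the highest in sphere-differentiated replicate 2. The implied total is thus not a plain count of the fragments of a library. Markers of carcinoma cells were present in all 6 libraries, with KRT7, KRT8 and KRT18 above 95.8% or more of the 15719 genes tested, MSLN at 9.61 to 24.0 FPKM and PAX8 at 1.69 to 3.40 FPKM. KRT7 and KRT18, which also stand in the list of epithelial genes, were lower in floating spheres (log2 fold change -2.19 and -1.07, limma adjusted p = 0.011 and 0.0033). WT1 had no fragment, MUC16 reached at most 0.0499 FPKM, and VIM, a filament gene of mesenchymal cells, stood at 0.0541 to 0.183 FPKM. ERBB2, which SKOV3 is known to carry in extra copies, stood at 6.56 to 10.2 FPKM, above 65.8% of the genes tested. This level of ERBB2, the near absence of VIM and the lack of any CDH2 fragment go against what is known of SKOV3, and the cell line is named here as labelled. Defining markers of immune (PTPRC, LYZ, MS4A1) and endothelial (CDH5) cells were at 0 fragments in every library. The 5 immune markers summed to 8.33 to 15.7 FPKM in floating spheres and 8.04 to 11.3 FPKM in sphere-differentiated cells, nearly all of it CD14. The 3 endothelial markers summed to 4.65 to 7.47 and 2.39 to 3.12 FPKM, nearly all of it PECAM1, which was called higher in floating spheres (log2 fold change 0.99, limma adjusted p = 0.0087). The 5 fibroblast markers summed to 0.962 to 2.88 and 1.13 to 1.14 FPKM, with COL1A2 and LUM at or near 0 in every library. The part of PECAM1- or CD14-bearing cells in the results was not tested.

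SNAI1 and TWIST2 were higher, and OVOL2 and ESRP1 lower, in floating spheres. The other mesenchymal-side genes SNAI2, TWIST1, ZEB1 and ZEB2 had no call, and OVOL1 and GRHL2 were too low to be tested. Changes were tested with limma on log2(FPKM + 0.5) across the 15719 genes whose mean reached 0.5 FPKM, with Benjamini-Hochberg adjustment at 0.05, and fold changes are on that scale, which understates the change of low genes. Of 8 members tested, 4 passed, where 33.6% of all genes tested did. By direction, 2 of 6 mesenchymal-side members rose, against 15.8% of all genes tested. Of 4 epithelial-side members only 2 were tested, OVOL2 and ESRP1, and both fell, against 17.8%. Both reached the filter only through sphere-differentiated cells, which favours this direction. Their count is therefore given as a value and not as support. Among 10 genes these shares say little about the members as a set. The values of the 2 states did not overlap for 3 tested members that were higher and 2 that were lower in floating spheres, beside 24.3% and 27.2% of all genes tested. The 2 lower ones were again OVOL2 and ESRP1, under the same limit. The median log2 difference over all 6 mesenchymal-side members was 0.24, and over all 4 epithelial-side members, with the untested ones included, -0.64, beside a median of 0.0032 over all genes tested. In bulk RNA, fewer cells that express a gene and less RNA per cell cannot be told apart.

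**Figure D1:**
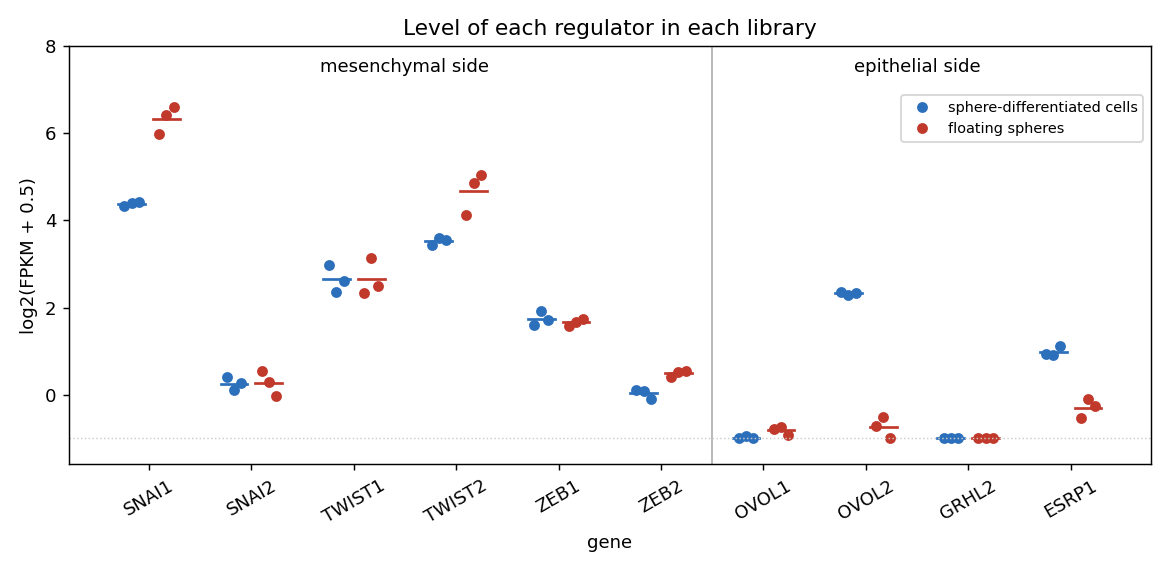
Level of the 10 regulators on the log2(FPKM + 0.5) scale, with 1 point per library, blue for sphere-differentiated cells, red for floating spheres and a bar at the mean of each 3. The dotted line is a value of 0 FPKM. SNAI1 and TWIST2 stood higher in all 3 floating sphere libraries, OVOL2 and ESRP1 lower, and GRHL2 lay at 0 throughout.

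SNAI1, a zinc finger repressor that acts early in the loss of epithelial junctions, was the most abundant member in both states. It lies on chromosome 20 (49982999 to 49988886, plus strand, GENCODE 29 on hg38), and no exon of another gene overlaps it. Its level was 63.0, 84.4 and 96.6 FPKM in floating sphere replicates 1, 2 and 3, and 19.6, 20.5 and 20.9 FPKM in sphere-differentiated replicates 1, 2 and 3. The lowest floating sphere library was thus well above the highest sphere-differentiated one, and the spheres varied far more among themselves. The means were 81.4 ± 17.0 FPKM (SD, n = 3) and 20.3 ± 0.680 FPKM, a ratio of 4.01. The log2 fold change was 1.95 (SE 0.18, limma adjusted p = 7.8e-04), which ranked 367 by size among the genes tested. It kept its call in all 17 alternative fits, at 1.82 to 2.13.

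SNAI2, the close relative of SNAI1 on chromosome 8 (48917604 to 48921740), is a repressor of the same class. It stood at 0.95, 0.723 and 0.486 FPKM in floating spheres and at 0.819, 0.576 and 0.699 FPKM in sphere-differentiated cells, so that the states overlapped. Its log2 fold change was 0.01 (95% interval -0.56 to 0.59, limma adjusted p = 0.97), on 28 to 54 fragments per library. This interval leaves room for a change of moderate size in either direction. The log2 ratio of SNAI1 to SNAI2, with 0.5 added to each FPKM, was 5.45, 6.12 and 6.62 in floating spheres and 3.93, 4.29 and 4.16 in sphere-differentiated cells. The addition lowers this ratio, since SNAI2 was low. The ratio differed by 1.94 between the states with no overlap (exact permutation test, two-sided, p = 0.10, the smallest that 3 against 3 libraries allow, adjusted p = 0.13 over 4 pairs of related genes).

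TWIST2, a basic helix-loop-helix factor on chromosome 2 (238848032 to 238910543, plus strand), was next in abundance in both states. It stood at 16.8, 28.5 and 32.3 FPKM in floating spheres and at 10.2, 11.6 and 11.3 FPKM in sphere-differentiated cells. The states did not overlap, and as with SNAI1 floating sphere replicate 1 was the lowest of the 3 spheres. The mean rose from 11.0 ± 0.726 to 25.9 ± 8.05 FPKM (SD, n = 3), a log2 fold change of 1.14 (SE 0.24, limma adjusted p = 0.011). The call held in all 17 alternatives, at 0.96 to 1.42.

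TWIST1, the better known TWIST gene, on chromosome 7 (19020991 to 19117672), did not follow TWIST2. It stood at 4.58, 8.35 and 5.10 FPKM in floating spheres and 7.42, 4.60 and 5.59 FPKM in sphere-differentiated cells, with the highest library of all in the spheres and nearly equal means. The log2 fold change was 0.01 (95% interval -0.58 to 0.61, limma adjusted p = 0.98). An antisense gene overlaps 6.94% of its exons, with at most 5 fragments in a library. The log2 ratio of TWIST2 to TWIST1, with 0.5 added to each FPKM, was 1.77, 1.71 and 2.55 in floating spheres and 0.44, 1.25 and 0.95 in sphere-differentiated cells. The ratio differed by 1.13 with no overlap (exact permutation test, two-sided, p = 0.10, the smallest possible, adjusted p = 0.13).

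ZEB1 and ZEB2 are large zinc finger and homeobox repressors that act with SNAI and TWIST factors. ZEB1, on chromosome 10 (31318495 to 31529814), stood at 2.48, 2.70 and 2.84 FPKM in floating spheres and 2.55, 3.29 and 2.76 FPKM in sphere-differentiated cells. The states overlapped, the log2 fold change was -0.08 (95% interval -0.43 to 0.27, limma adjusted p = 0.71), and each library held 349 to 418 fragments. ZEB1 thus had the narrowest interval of the 4 uncalled mesenchymal-side genes. ZEB1-AS1, on the other strand (31206278 to 31320447), overlaps 4.23% of the ZEB1 exons. It had 1.38 ± 0.193 and 1.84 ± 0.426 FPKM (SD, n = 3) and no call (limma adjusted p = 0.27). Whether reads were counted by strand is not given in the sources used here, so reads of the overlap cannot be assigned.

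ZEB2, on chromosome 2 (144364364 to 144524583), was the member whose result turned on the method. It stood at 0.831, 0.932 and 0.951 FPKM in floating spheres and at 0.572, 0.559 and 0.439 FPKM in sphere-differentiated cells, on 349 to 405 against 181 to 227 fragments. The states did not overlap, as was the case for 51.6% of all genes tested, counting either direction. The log2 fold change was 0.46 (95% interval -0.04 to 0.96, limma adjusted p = 0.14). On recovered fragments with voom it was 0.80 (limma adjusted p = 0.0088), and without an intensity trend the adjusted p was 0.042, while the adjusted p ranged from 0.0088 to 0.34 over 15 alternatives and passed in 2. The log2 ratio of ZEB2 to ZEB1, with 0.5 added to each FPKM, was -1.16, -1.16 and -1.20 in floating spheres and -1.51, -1.84 and -1.80 in sphere-differentiated cells (difference 0.54, exact permutation test, two-sided, p = 0.10, the smallest possible, adjusted p = 0.13).

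**Figure D2:**
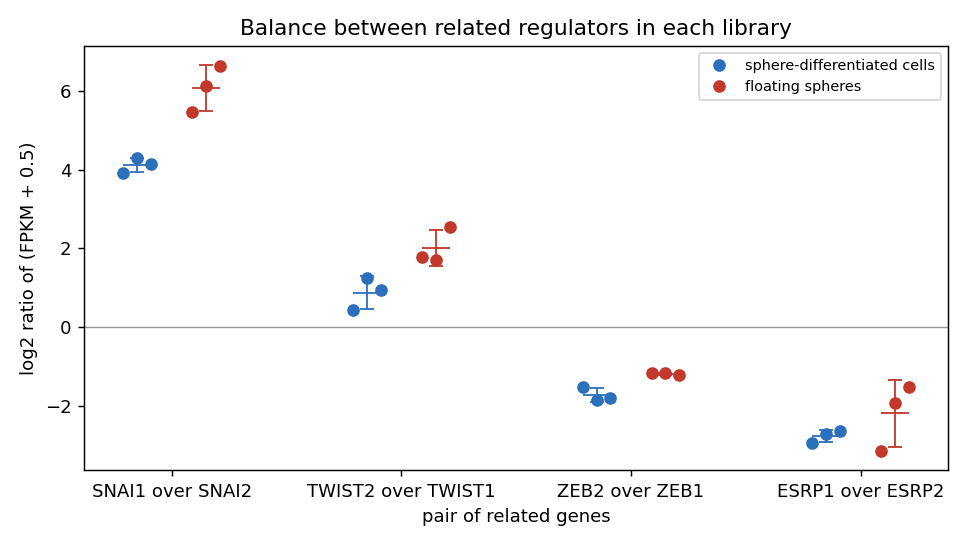
Log2 ratio of (FPKM + 0.5) between related regulators in each library, with points for libraries, a bar at the mean and whiskers of 1 SD over 3 libraries. The ratio of SNAI1 to SNAI2 moved by 1.94 between states and that of ESRP1 to ESRP2 overlapped between them.

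OVOL2, a zinc finger factor that keeps cells epithelial and represses ZEB1, had the largest change of the members. It lies on chromosome 20 (17956979 to 18059188, minus strand), and SNX5 on the same strand overlaps 2.71% of its exons. It stood at 0.110, 0.197 and 0 FPKM in floating spheres and at 4.62, 4.39 and 4.55 FPKM in sphere-differentiated cells. These values rest on 4, 7 and 0 fragments against 159, 137 and 163, so the gene was close to undetected in spheres and steady among attached cells. Relative to the totals implied by the FPKM scale it was 44.8-fold lower in floating spheres (exact 95% interval 24.8 to 90.4, for counting error only). The log2 fold change was -3.07 (SE 0.20, limma adjusted p = 3.2e-04), the 53rd largest by size of all genes tested. Its size depended on how low values were treated, at -4.65 with a pseudocount of 0.1 and -6.02 with voom, and the call held in all 16 alternatives (adjusted p 3.0e-04 to 0.0055).

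ESRP1, on chromosome 8 (94641074 to 94707466, plus strand), encodes an epithelial splicing factor, and no exon of another gene overlaps it. It stood at 0.196, 0.428 and 0.338 FPKM in floating spheres and at 1.40, 1.37 and 1.66 FPKM in sphere-differentiated cells, on 16, 34 and 28 against 108, 96 and 133 fragments. The states did not overlap. The log2 fold change was -1.28 (SE 0.22, limma adjusted p = 0.0060), and -2.25 with voom. Relative to the implied totals the ratio between states was 4.64 (exact 95% interval 3.62 to 6.01, for counting error only). OVOL2 and ESRP1 reached the filter only through sphere-differentiated cells, a selection that favours genes higher there. In the fit with no filter both still passed, with adjusted p of 0.0025 for OVOL2 and 0.018 for ESRP1 (limma).

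OVOL1 and GRHL2 were at or near the limit of detection. OVOL1, a relative of OVOL2 on chromosome 11 (65787022 to 65797219), had 5, 6 and 2 fragments in floating spheres and 0, 1 and 0 in sphere-differentiated cells, which is 0.0679 ± 0.0335 against 0.00604 ± 0.0105 FPKM (SD, n = 3). These few fragments lay more in the spheres, unlike those of OVOL2. The ratio was 12.1 relative to the implied totals, with an exact 95% interval for counting error of 1.82 to 515. OVOL1 had no call in the fit with no filter (limma adjusted p = 0.14, log2 fold change 0.16). An antisense gene, AP001266.1, overlaps 27.1% of its exons and had no fragment in any library. GRHL2, a grainyhead factor on chromosome 8 (101492432 to 101669726) that activates CDH1 and other junction genes, had no fragment in any of the 6 libraries. A count of 0 allows up to 3 fragments, or 0.0291 to 0.0345 FPKM, so a change of GRHL2 was not detectable at this depth.

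Within each state the order of levels was the same at the top, SNAI1, then TWIST2, then TWIST1. In sphere-differentiated cells OVOL2 came next, and its range overlapped that of TWIST1, followed by ZEB1, ESRP1, SNAI2, ZEB2, OVOL1 and GRHL2 without overlap between neighbours except the last 2. In floating spheres ZEB1 followed TWIST1, then ZEB2 and SNAI2, which overlapped, then ESRP1, OVOL2 and OVOL1, each overlapping the next, and GRHL2. OVOL2 thus went from between TWIST1 and ZEB1 to below ESRP1. The 6 mesenchymal-side genes summed to 88.7, 126 and 138 FPKM in floating spheres and to 41.1, 41.2 and 41.6 FPKM in sphere-differentiated cells, and SNAI1 and TWIST2 together made up 89.9% to 93.2% and 72.4% to 78.1% of these sums. The 4 epithelial-side genes summed to 0.383, 0.721 and 0.369 against 6.02, 5.78 and 6.21 FPKM. The mean log2 level of the mesenchymal-side genes exceeded that of the epithelial-side genes by 3.25, 3.41 and 3.52 in floating spheres and by 1.82, 1.76 and 1.71 in sphere-differentiated cells, given as a description with no test.

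Among relatives of the members, ESRP2, TFCP2L1 and OVOL3 were lower in floating spheres. Of 8 such genes, 5 could be tested, 3 fell and none rose, where 17.8% and 15.8% of all genes did. Among those that fell, OVOL3 is given as a value and not as support, for the filter reason given below. ESRP2, the second epithelial splicing factor, stood at 5.63, 2.99 and 1.88 FPKM in floating spheres and at 14.1, 11.7 and 13.0 FPKM in sphere-differentiated cells (log2 fold change -1.85, SE 0.32, limma adjusted p = 0.0055), with floating sphere replicate 1 the least reduced. ESRP2 carried most of the ESRP transcripts, at 84.8% to 96.6% of the ESRP1 and ESRP2 sum in floating spheres and 88.7% to 91.0% in sphere-differentiated cells, and the sum was 2.22 to 5.83 against 13.1 to 15.5 FPKM. The ratio of ESRP1 to ESRP2 overlapped between states (difference 0.58 on the log2 scale, exact permutation test, two-sided, p = 0.40, adjusted p = 0.40). TFCP2L1, a relative of the grainyhead genes, stood at 0.675 ± 0.106 against 2.48 ± 0.340 FPKM (SD, n = 3, log2 fold change -1.34, limma adjusted p = 0.0027). OVOL3, which reached the filter only through sphere-differentiated cells, had 4 to 6 fragments against 13 to 16 and a log2 fold change of -0.93 (limma adjusted p = 0.015), a call that was lost when sphere-differentiated replicate 1, 2 or 3 was left out (adjusted p 0.065, 0.053 and 0.066). SNAI3 (0.41) and GRHL1 (-0.34) had no call and overlapped between states, and SCRT1, SCRT2 and GRHL3 were under the filter, with GRHL3 at means of 0.182 and 0.189 FPKM.

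**Figure D3:**
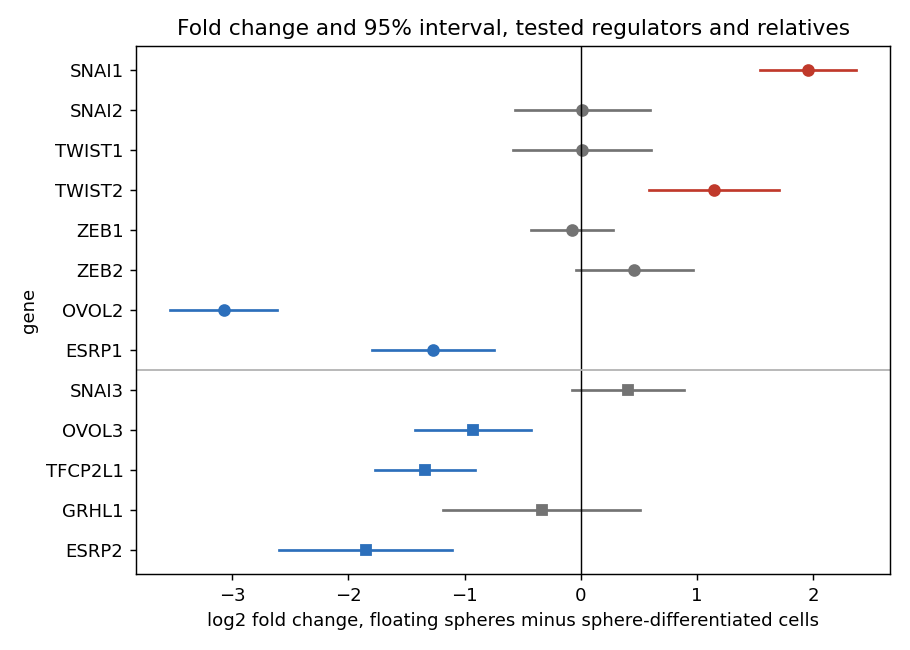
Log2 fold change with its 95% interval from limma for the 8 tested members (circles) and 5 relatives (squares), red for higher and blue for lower in floating spheres and grey for no call. SNAI1 and TWIST2 lie to the right of 0, and OVOL2, ESRP1 and the relatives ESRP2, OVOL3 and TFCP2L1 to the left.

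Promoter sequences from RefSeq were at hand for 3 of the 10 members (TWIST2, ZEB1 and ZEB2) and for the relatives OVOL3 and TFCP2L1. Shown are the 250 bases before the start of a gene that rose (TWIST2, chr2:238847835-238848084, plus strand), of a relative that fell (TFCP2L1, chr2:121285203-121285452, minus strand) and of a member without a call (ZEB1, the first of 7 starts, chr10:31318167-31318416, plus strand), in GRCh38.p14. They were searched for the E-box CAGGTG on both strands, which reads CACCTG on the other strand, and matches are in capitals.
TWIST2: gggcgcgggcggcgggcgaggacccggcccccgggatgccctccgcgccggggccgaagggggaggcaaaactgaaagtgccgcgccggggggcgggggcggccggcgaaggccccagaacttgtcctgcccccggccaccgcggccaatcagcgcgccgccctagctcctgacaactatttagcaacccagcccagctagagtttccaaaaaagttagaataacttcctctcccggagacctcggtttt
TFCP2L1: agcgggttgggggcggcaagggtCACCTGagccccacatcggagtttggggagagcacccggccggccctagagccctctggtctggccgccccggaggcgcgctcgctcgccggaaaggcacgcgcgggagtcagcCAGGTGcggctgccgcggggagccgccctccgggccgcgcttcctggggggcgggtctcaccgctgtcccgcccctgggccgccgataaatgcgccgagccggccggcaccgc
ZEB1: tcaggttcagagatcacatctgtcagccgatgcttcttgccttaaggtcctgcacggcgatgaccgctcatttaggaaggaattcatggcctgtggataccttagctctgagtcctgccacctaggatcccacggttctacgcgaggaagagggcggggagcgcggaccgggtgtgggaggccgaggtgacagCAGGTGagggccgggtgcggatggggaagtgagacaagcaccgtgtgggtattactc
The TFCP2L1 window held 2 matches, 227 and 113 bases before the start, the ZEB1 window 1, 57 bases before it, and the TWIST2 window none. Windows at ZEB2 and OVOL3 held none either, and 2 of the 7 ZEB1 windows held a match. Among 35116 promoter windows of this length, 17.5% had at least 1 match and 2.53% had 2 or more. A match is a string of letters, not a measured binding site.

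The miR-200 family is known to hold ZEB1 and ZEB2 down and to be repressed by them in turn. Its mature forms, from RefSeq, are shown with bases 2 to 8, the seed, in capitals, since they fall into 2 groups that pair with different sites.
hsa-miR-200b-3p: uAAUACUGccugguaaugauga
hsa-miR-200c-3p: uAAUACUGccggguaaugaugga
hsa-miR-429: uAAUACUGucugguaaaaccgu
hsa-miR-200a-3p: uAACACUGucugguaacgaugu
hsa-miR-141-3p: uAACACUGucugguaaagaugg
The first 3 share the seed AAUACUG and the other 2 the seed AACACUG. The genes of all 5 and the host transcript MIR200CHG had no fragment in any library. Such libraries are not made to capture mature microRNAs, so these zeros say nothing of mature levels. The entries of the 5 genes are 68 to 95 bases long, and whether precursors this short were captured is not known.

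Partners of the members moved in both directions. TWIST factors bind DNA as pairs with E proteins, and ID proteins take E proteins away from them. Of 9 such genes, 5 were tested, 1 rose and 1 fell, near the shares over all genes. ID1 rose from 261 ± 43.1 to 785 ± 174 FPKM (SD, n = 3, log2 fold change 1.57, limma adjusted p = 0.0032), the E protein gene TCF12 fell from 23.1 ± 4.30 to 7.81 ± 1.40 FPKM (-1.50, adjusted p = 0.0020), and TCF4 was under the filter in both states. Of 17 genes of repressor complexes that SNAI and ZEB proteins recruit, 5 fell and 2 rose, where 17.8% and 15.8% of all genes did, so the number that rose was no more than the background. AJUBA, an adaptor of SNAI proteins that also acts at junctions, fell by 2.73 on the log2 scale (limma adjusted p = 4.3e-04), its relative WTIP by 1.16 and CTBP2, a corepressor of ZEB proteins, by 0.79, with 34.7% of the CTBP2 exons overlapped by other genes. EZH2, the Polycomb methyltransferase, rose by 0.92 and the methyltransferase gene SUV39H1 by 0.64. Leaving out sphere-differentiated replicate 1, 2 or 3 ended the call of EZH2 (adjusted p 0.055, 0.055 and 0.056), and leaving out replicate 3 that of WTIP (adjusted p 0.0504). The call of SUV39H1 held in 10 of 17 alternatives and was lost without any 1 library except floating sphere replicate 2 (adjusted p up to 0.13).

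SNAI, TWIST and ZEB proteins are short-lived, and their turnover is set by kinases and ubiquitin ligases. Of 15 genes that act on it, 6 fell and 3 rose, where 17.8% and 15.8% of all genes did. The ligase genes BTRC and FBXO45 fell by 0.73 each on the log2 scale (limma adjusted p = 0.011 and 0.0073), and the kinase gene LATS2 by 1.08 (adjusted p = 0.0017). CTDSP1, a phosphatase that removes the marks for SNAI1 breakdown, rose by 1.52 (limma adjusted p = 0.0018), the ligase gene FBXL5 by 0.65 and LOXL2, an oxidase that stabilises SNAI1, by 1.66. LOXL2 varied widely among spheres, at 63.4 ± 36.5 FPKM (SD, n = 3), and dropping sphere-differentiated replicate 2 ended its call (adjusted p 0.054), as dropping replicate 3 did for BTRC (adjusted p 0.052). Protein levels were not measured.

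Genes listed as epithelial or mesenchymal moved in part in the direction of the members of their side. Whether the members acted on them in these cells was not tested. Both lists were chosen with earlier results of these data known. Of 31 epithelial genes, 22 were tested, 14 fell and 1 rose, where 17.8% and 15.8% of all genes did, and the median log2 difference over all 31 was -0.74. Of those tested, 3 reached the filter only through the state where they were higher, OCLN through sphere-differentiated cells and MUC1 and KRT19 through floating spheres, so the calls of OCLN and MUC1 are given as values and not as support, and KRT19 had none. The claudin gene CLDN1 stood at 1.07 ± 0.330 FPKM in floating spheres against 50.1 ± 4.13 FPKM, OCLN at 0.0856 ± 0.0484 against 3.05 ± 0.306, and EPCAM at 0.885 ± 0.261 against 6.51 ± 0.447 (SD, n = 3, limma adjusted p of 5.0e-04 or less for each). CDH1, the classical target of SNAI1, was chosen after its values were seen. It stood at 0.860, 4.92 and 1.77 FPKM in floating spheres and 6.25, 6.63 and 6.75 FPKM in sphere-differentiated cells (log2 fold change -1.46, limma adjusted p = 0.040), with floating sphere replicate 2 the highest of the spheres by far. This call held in 8 of 16 alternatives and ended when sphere-differentiated replicate 1, 2 or 3 or floating sphere replicate 1 or 3 was left out (adjusted p 0.066 to 0.11), while without floating sphere replicate 2 the log2 fold change was -2.00 (adjusted p 0.0028). The mucin gene MUC1 rose, with a log2 fold change of 2.36. Of 19 mesenchymal genes, 13 were tested, 8 rose and none fell, where 15.8% and 17.8% of all genes did, with a median log2 difference of 0.76 over all 19. The number that rose ranged from 3 to 9 when 1 library was left out. The collagen genes COL5A1 (2.14) and COL3A1 (0.86) and the cadherin gene CDH11 (1.08) had the smallest adjusted p. CDH11 reached the filter only through floating spheres, at 0.977 ± 0.101 against 0.197 ± 0.00615 FPKM (SD, n = 3), and dropping sphere-differentiated replicate 3 ended its call (limma adjusted p = 0.051). VIM, at 0.0541 to 0.183 FPKM, was under the filter, and CDH2, the N-cadherin gene, and THY1 had no fragment in any library.

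Other transcription factors of either side did not follow a single pattern. Of 12 further factors of the mesenchymal side, 7 were tested, 3 fell and 1 rose, where 17.8% and 15.8% of all genes did, so the number that rose was near the background. The log2 fold change was -1.68 for FOXQ1, -1.03 for SOX4 and 0.53 for KLF8. The call of KLF8 was close to the threshold (limma adjusted p = 0.0498) and held in 4 of 16 alternatives, and in none that left out a library. The call of SOX4 held in 10 of 16 and was lost without any 1 library except floating sphere replicate 2 (adjusted p up to 0.079). Of 12 further factors of the epithelial side, 9 were tested and 2 fell, again beside 17.8% of all genes, KLF5 from 197 ± 28.3 to 68.7 ± 5.46 FPKM (SD, n = 3, log2 fold change -1.51) and the pioneer factor gene FOXA1 (-1.63). None rose.

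Among 17 splicing regulators of the epithelial-mesenchymal switch, 15 were tested, 3 rose and 3 fell, shares near the 15.8% and 17.8% of all genes. Besides ESRP2, QKI, which favours mesenchymal isoforms, stood at 7.20 ± 1.19 against 17.5 ± 1.26 FPKM (SD, n = 3, log2 fold change -1.23, limma adjusted p = 0.0020), and MBNL2 at 9.25 ± 0.284 against 25.6 ± 5.59 FPKM (-1.40, adjusted p = 0.0018). HNRNPF (0.61), PTBP1 (0.56) and RBM47 (0.58) rose. The call of HNRNPF was lost without sphere-differentiated replicate 2 or 3 (adjusted p up to 0.060). PTBP1 and RBM47 held in 9 of 17 and 5 of 16 alternatives and lost their calls without any 1 library except floating sphere replicate 2 (adjusted p up to 0.14). Of 10 genes whose splicing ESRP proteins set, 9 were tested and CD44 (log2 fold change 0.76, limma adjusted p = 0.032) was the only one called, beside 33.6% of all genes. Its call held in 11 of 17 alternatives and was lost without any 1 library except floating sphere replicate 3 (adjusted p up to 0.10). FGFR2 was under the filter, at 0.198 ± 0.0975 against 0.463 ± 0.0379 FPKM (SD, n = 3). Values per gene do not show isoforms, so splicing itself was not measured.

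**Figure D4:**
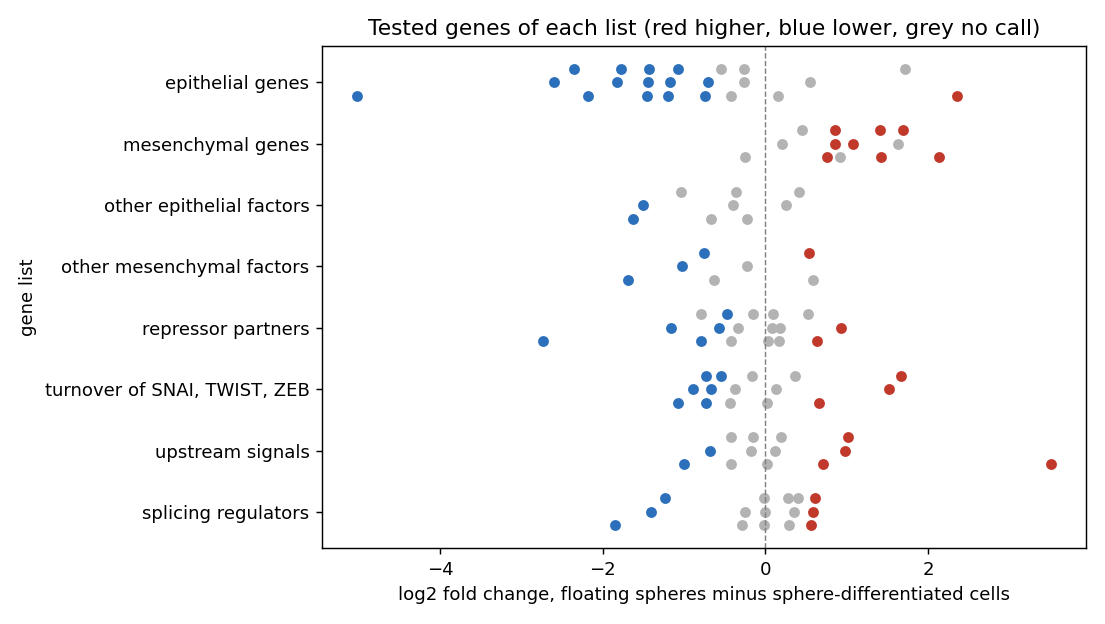
Log2 fold change of each tested gene in 8 lists, with 1 point per gene, red where limma called it higher in floating spheres, blue where lower and grey for no call. Epithelial genes lie mostly to the left of 0 (14 lower, 1 higher) and mesenchymal genes to the right (8 higher). Of all genes tested, 17.8% were lower and 15.8% higher. Both lists were chosen with earlier results of these data known. OCLN, MUC1 and CDH11 reached the filter only through the state where they were higher.

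For each called member, the genes with the most similar profile were found by the root mean square distance between log2(FPKM + 0.5) values over the 6 libraries, each centred on its mean. For SNAI1 they were ATG9B (0.105), RNU6ATAC3P (0.108) and AOX1 (0.129), against a median distance of 1.04 over all genes. For TWIST2 they were TFPI (0.0502), GNG4 (0.0924) and TGM2 (0.101), against 0.714. For OVOL2 they were INHBE (0.148), AL807752.5 (0.169) and CDC42EP3 (0.184), against 1.57, and for ESRP1 they were MYCL (0.0811), QKI (0.0888) and NTNG2 (0.0889), against 0.715. With 2 states in 6 libraries, such distances mostly measure a like step between states on that scale. The added 0.5 shrinks the step of low genes, so a near profile need not mean a like fold change in FPKM. RNU6ATAC3P was at 0 FPKM in every sphere-differentiated library and reached the filter only through floating spheres. AL807752.5, MYCL and NTNG2 were under 0.5 FPKM in every floating sphere library and reached it only through sphere-differentiated cells.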

How the data were processed

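RNA of SKOV3 cells was sequenced in 6 libraries, 3 of floating spheres and 3 of sphere-differentiated cells. The authors deposited FPKM values per gene and library, and their processing notes name hg38, featureCounts 1.5.0-p3 and DESeq2 1.20.0, while the methods of the study name edgeR for testing. No aligner, annotation release or strand setting was given in the sources used. GENCODE 29 held 99.954% of the 58735 names. FPKM multiplied by exon length gave whole fragments within 0.01 for all values with a known length (56923 entries).

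R 4.3.3 and limma 3.58.1 were used to fit log2(FPKM + 0.5) for genes whose mean reached 0.5 FPKM, with an intensity trend, group as the only term and Benjamini-Hochberg adjustment over 15719 genes. The fit was tested on simulated data. Members and lists were chosen with earlier results of these data known, and the ratios between related genes were added after the data had been seen. All 10 members were named, with up to 3 genes per direction of smallest adjusted p in each list, the 3 nearest profiles of called members and antisense genes. A gene that this rule names is not reported here. CDH1, FGFR2, TCF4, CDH2, THY1, KRT19, the uncalled relatives, the miR-200 genes and the marker genes were named outside this rule. Alternatives changed the pseudocount, filter, scaling, replicate term, moderation or measure, or left out each library. Same-numbered libraries did not deviate together (r -0.074 to -0.020), so no pairing was used. Intervals on fragments are exact and cover counting error only, and the floor is 3 fragments per library.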

Additional observations from a re-analysis of the deposited data

How the results depend on the processing

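SNAI1 and TWIST2 kept their direction and call in all 17 alternatives, OVOL2 in all 16 and ESRP1 in all 15 that tested them. With a minimum mean of 1 FPKM, ESRP1 was no longer tested and 1 member was lower. With a minimum mean of 5 FPKM, 2 members were called in all, 0 of them lower, since OVOL2 was not tested either. The median over all epithelial-side members moved with the pseudocount, to -0.97 with 0.1 and -0.45 with 1, and was -0.96 on TPM. Quantile normalization and voom gave no median over all members, since they leave out genes under the filter. Among genes without a call, SNAI2 changed sign on TPM (-0.055), with quantile normalization (-0.12) and voom (-0.0027), without floating sphere replicate 1 (-0.12) and without sphere-differentiated replicate 2 (-0.062). It ranged from -0.12 to 0.16 when 1 library was left out. TWIST1 did so on TPM (-0.064) and without sphere-differentiated replicate 2 (-0.14) or 3 (-0.0095) or floating sphere replicate 2 (-0.23), with a range of -0.23 to 0.18. ZEB1 did so without sphere-differentiated replicate 2 (0.0092), with a range of -0.15 to 0.0092.

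Over all genes, 5279 were called, 2487 higher and 2792 lower, against 3402 and 1478 higher with a minimum mean of 5 FPKM. Leaving out 1 library gave 2806 to 5337 calls, 1352 to 2479 higher and 1454 to 2861 lower, with the fewest without sphere-differentiated replicate 3. With a replicate block, 4088 genes and the same count of 4 members were called. KLF8 (adjusted p 0.079), NFKB1 (0.064) and RBM47 (0.076) lost their calls under the block. No library was closest to the one that shared its number (0 of 6), so the block stands for a shared number only. When any 1 library was left out, the list of mesenchymal genes had 3 to 9 higher, that of epithelial genes 11 to 19 lower, that of repressor partners 2 to 6 lower and 0 to 3 higher, that of turnover genes 3 to 6 lower and 2 to 3 higher, that of splicing regulators 0 to 4 higher, and that of upstream signals 1 to 4 higher and 0 to 3 lower. Depth limits OVOL1, OVOL2 in spheres, GRHL2 and OVOL3, which rest on few or no fragments.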

Other observations

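Of 13 genes of the signals that induce these regulators, 4 were higher and 2 lower in floating spheres, beside 15.8% and 17.8% of all genes tested, so the number that fell was no more than the background. EGR1, an early response factor known to act on the SNAI1 promoter, stood at 45.3, 20.1 and 47.2 FPKM in floating spheres and at 2.27, 2.31 and 3.43 FPKM in sphere-differentiated cells (log2 fold change 3.51, SE 0.33, limma adjusted p = 8.8e-04). The libraries of the 2 states lay far apart. The TGF-beta genes moved in both directions, with TGFB3 (log2 fold change 1.01) and TGFB1 (0.71) higher, and TGFB2 lower at 16.8 ± 5.28 against 33.2 ± 5.49 FPKM (SD, n = 3). Leaving out sphere-differentiated replicate 2 or 3 ended these calls (limma adjusted p 0.056 and 0.053 for TGFB3, 0.070 and 0.074 for TGFB1, 0.084 and 0.057 for TGFB2), and that of TGFB2 was also lost with no filter (0.057). NFKB1 fell by 0.68 on the log2 scale (limma adjusted p = 0.038), a call that held in 11 of 17 alternatives and was lost when sphere-differentiated replicate 1, 2 or 3 was left out (adjusted p up to 0.12).

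Of 14 microRNA genes, microRNA hosts and antisense genes, 9 had no fragment in any library and 3 were tested. SNAI3-AS1, on the strand opposite SNAI3, rose from 0.936 ± 0.296 to 3.33 ± 0.482 FPKM (SD, n = 3, log2 fold change 1.43, limma adjusted p = 0.0034), while SNAI3 had no call. The 2 genes overlap over 9.41% of the SNAI3 exons. MIR34AHG, the host of a microRNA that is known to target SNAI1, rose from 0.812 ± 0.114 to 2.35 ± 0.244 FPKM (SD, n = 3, log2 fold change 1.12, limma adjusted p = 0.0040). SNAI1 and this host were therefore both higher in floating spheres. The level of a host does not give that of its mature microRNA, and a link of this host to SNAI1 was not tested.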
